A study of Mus musculus with 2 samples.

Results

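Small nucleolar RNAs (snoRNAs) were measured in neural precursor cells taken from E11.5 forebrain of Jcl:ICR mice. The cells had received either a retrovirus for HMGN1, a protein that binds nucleosomes, or a control retrovirus. Both cultures were replated 3 days after infection and spent 1 further day without FGF2 and EGF before total RNA was hybridised to 1-colour whole-transcript arrays. There are 2 arrays, 1 per virus, so every value below describes these 2 RNA samples, has no replicate check and carries no p-value. The promoter that drives HMGN1 in the virus, the share of cells infected and the number of embryos were not stated in the labels. Hmgn1 itself read 230 (control) and 348 (HMGN1), a ratio of 1.52.

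The members are the genes whose probe set carries a single symbol that starts with Snord or Snora and a digit, 51 of 19938 genes on the array, measured by 56 probe sets. They were selected on their symbols alone, but the class was chosen by its difference between these same arrays, so the direction given here is a description and not independent evidence. Box C/D members (Snord symbols) number 31 and box H/ACA members (Snora symbols) number 20. A gene counted as detected when its mean on log2(intensity + 16) reached a floor of 85.9 in intensity, under which 95% of olfactory receptor probe sets lie. By this rule 41 members were detected, 22 of box C/D and 19 of box H/ACA, among 11325 detected genes. Of the 41, 38 were above the floor on both arrays, 3 on the control virus array alone and 0 on the HMGN1 virus array alone.

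snoRNAs are short nuclear RNAs that base-pair with target RNAs and guide an enzyme to a chosen nucleotide. Box C/D snoRNAs carry the short motifs C and D and direct 2'-O-methylation by fibrillarin, and box H/ACA snoRNAs fold into hairpins and direct pseudouridylation by dyskerin. Most targets lie in ribosomal RNA, and a few snoRNAs are needed to cut the ribosomal precursor itself. In mammals most are processed from introns of a host gene, often a gene of the translation machinery or a noncoding gene with no other known product, so host and snoRNA come from the same primary transcript.

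A stretch of a member itself could be read for Snord33, because its first 28 bases overlap the hairpin of the microRNA Mir5121 in RefSeq (GRCm38.p6, chr7:45126918-45126945, minus strand, the strand of its host Rpl13a). It is shown because it holds the motif that defines the C/D class: capitals mark box C, the letters UGAUGA, which begin at base 7.
Snord33: agcuugUGAUGAgacaucucccacucau

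Host genes of the translation machinery often start transcription at a C followed by a run of pyrimidines. The windows below run from 20 bases before to 30 bases from the annotated start, on the RNA strand, for 9 hosts, chosen after their values were seen to show windows with and without the run (RefSeq, GRCm38.p6). Of the 9, 5 hold it, so they do not stand for the share over all hosts. Capitals mark a C followed by at least 4 bases that are each C or T, where the C lies within 10 bases of the start. Coordinates are chr1:161035146-161035195 on the plus strand for Gas5 (the window of 2 that holds such a run), chr7:45128716-45128765 on the minus strand for Rpl13a, chr4:132308658-132308707 on the plus strand for Snhg12, chr11:62602857-62602906 on the plus strand for 2410006H16Rik, and chr11:48800340-48800389 on the plus strand for Rack1. The hosts whose window lacks the run are Ncl (chr1:86359426-86359475, minus strand), Wdr43 (chr17:71616195-71616244, plus strand), Rps3a1 (chr3:86142639-86142688, minus strand) and Tpt1 (chr14:75845236-75845285, plus strand).
Gas5: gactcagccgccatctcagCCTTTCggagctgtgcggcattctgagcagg
Rpl13a: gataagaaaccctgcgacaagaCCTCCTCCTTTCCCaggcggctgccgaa
Snhg12: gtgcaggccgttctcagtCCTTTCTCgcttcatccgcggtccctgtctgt
2410006H16Rik: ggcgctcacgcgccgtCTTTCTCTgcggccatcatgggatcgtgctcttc
Rack1: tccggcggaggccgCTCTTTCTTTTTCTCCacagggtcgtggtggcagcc
Ncl: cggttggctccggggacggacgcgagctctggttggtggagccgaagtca
Wdr43: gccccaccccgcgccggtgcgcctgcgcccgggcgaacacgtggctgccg
Rps3a1: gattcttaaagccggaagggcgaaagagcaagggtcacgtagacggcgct
Tpt1: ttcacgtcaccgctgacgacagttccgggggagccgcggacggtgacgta

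Of 43 host genes named for the members, 31 had such a window and 15 of them (48.4%) held the run, against 9297 of 27025 genes with a window (34.4%). Both kinds of window occurred beside snoRNAs that were lower with the HMGN1 virus: Gas5, Rpl13a, Snhg12 and 2410006H16Rik held the run, and Rps3a1, Tpt1, Wdr43 and Ncl did not. Rack1, with the run, holds Snord95, which was higher. A match, or the lack of one, is a description of these letters at the annotated start only. The start used in these cells was not measured, so a window without the run does not show that the RNA lacks it.

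Most snoRNAs of both classes were lower in the HMGN1 virus sample. Over every member, 44 of 51 were lower, 5 higher and 2 had the same value on both arrays, with a median log2 difference (HMGN1 minus control virus, intensity + 16) of -0.30. Among the 41 detected members 38 were lower and the median was -0.35, while 38.4% of all detected genes were lower and their median was 0.027. At least 1.5-fold lower were 6 detected members, against 0.0706% of all detected genes (8 genes, the members included), and at least 1.25-fold lower were 22, against 0.521%. None was at least 1.25-fold higher (0 of 41, beside 0.494% of all detected genes). Members made up 13 of the 20 lowest, 21 of the 50 lowest and 27 of the 100 lowest of the 11325 detected genes. At the other end they made up 0 of the 50 highest and 1 of the 100 highest. With 41 members among 11325 genes, these counts at the high end are no result about the members.

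**Figure D1:**
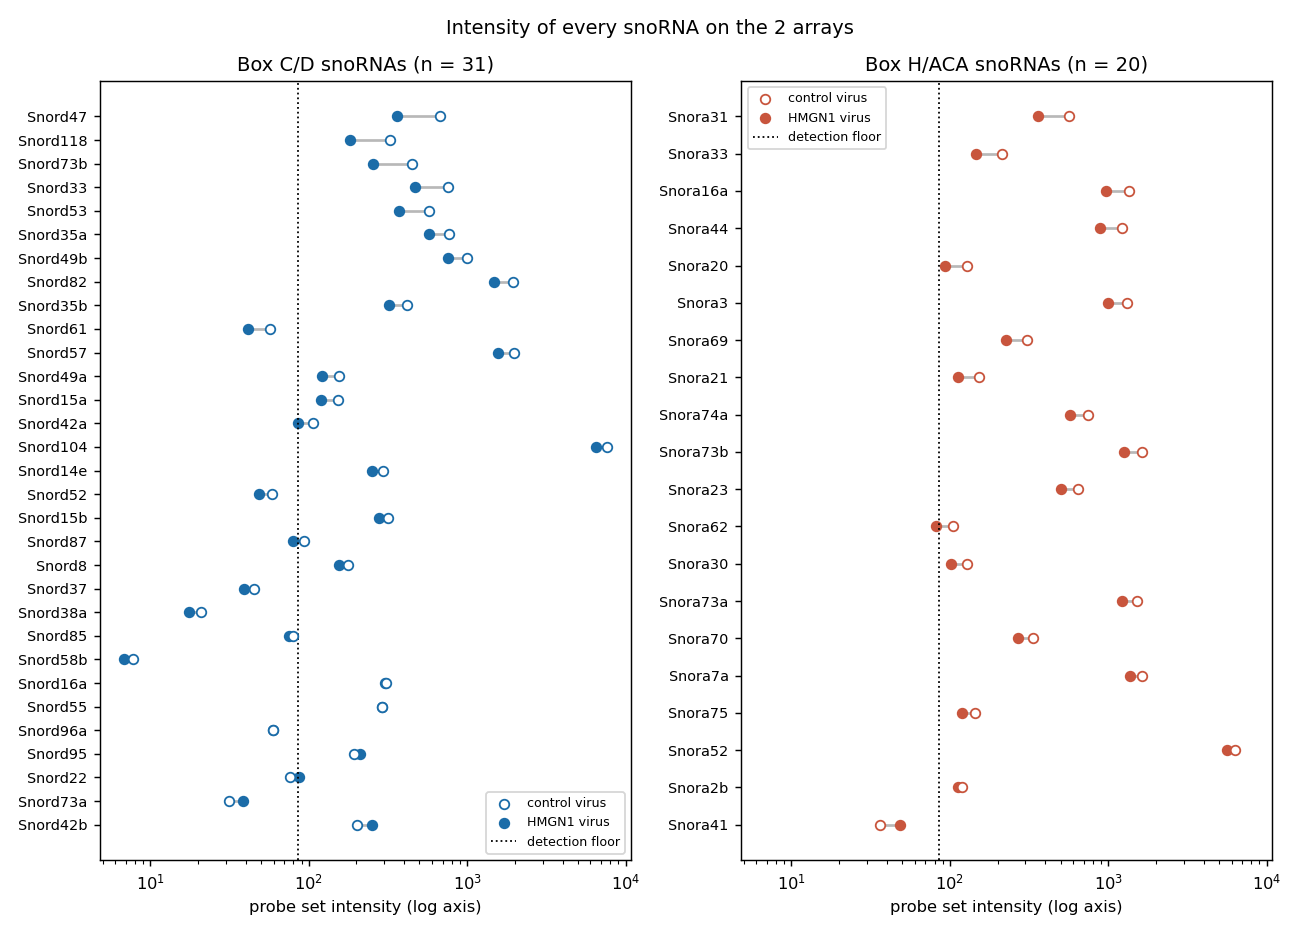
Probe set intensity (log axis) of each of the 51 snoRNAs with the control virus (open circles) and the HMGN1 virus (filled circles), box C/D on the left and box H/ACA on the right, ordered by log2 difference, with the detection floor of 85.9 dotted. Most filled circles lie to the left of their open circle, and the members at the bottom of each panel go the other way.

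**Figure D2:**
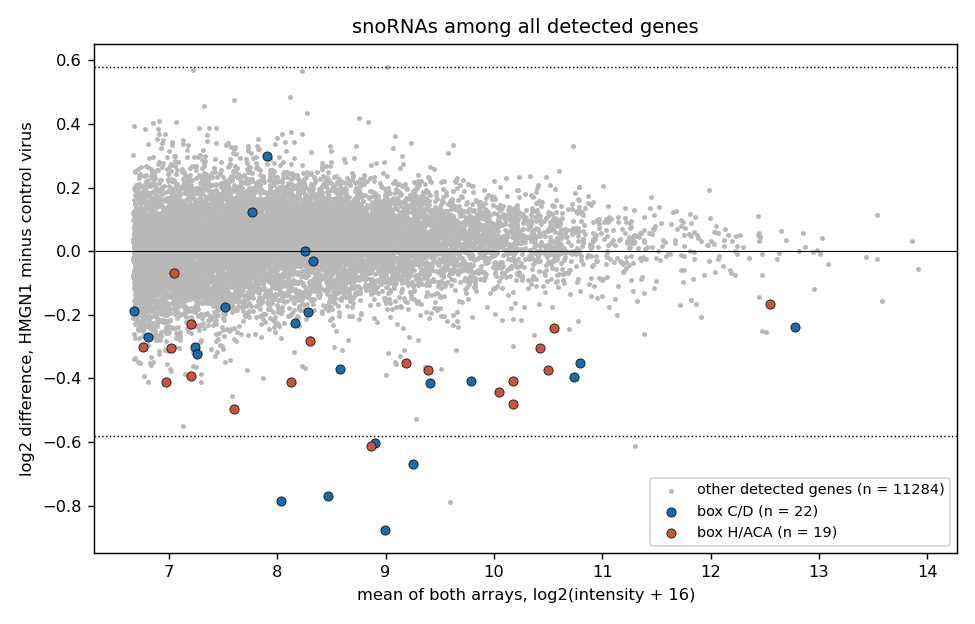
Log2 difference (HMGN1 minus control virus) against the mean of both arrays for all detected genes, with box C/D members in blue, box H/ACA members in red, other genes in grey, and a 1.5-fold difference dotted. Most members lie in the lower part of the cloud or below it, and a few, such as Snord42b and Snord95, lie above 0.

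Among detected members, the 2 classes had similar medians and different spreads. Box C/D members that were detected had a median of -0.31, ranged from -0.88 to 0.30, and split into 19 lower, 2 higher and 1 equal. Detected box H/ACA members had a median of -0.37, ranged from -0.61 to -0.068, and all 19 were lower. The range of the detected H/ACA members lay inside that of the C/D members. The classes thus overlapped, with detected box C/D members also below and above the H/ACA range. The 1 box H/ACA member under the floor, Snora41, was higher (36.4 and 48.1, 0.29). Over every member the H/ACA range therefore reached 0.29, near the 0.30 of box C/D. Counted over every member, the medians were -0.23 for 31 box C/D and -0.36 for 20 box H/ACA snoRNAs. At 1.5-fold, 5 of the 6 lower members were box C/D, and at 1.25-fold each class had 11. The genes are not replicates of a class, and the difference between the classes was not tested.

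The lowest value of any detected gene belonged to Snord47, a box C/D methylation guide. It read 674 on the control virus array and 360 on the HMGN1 virus array, which is 1.83-fold lower (-0.88). Its known host is Gas5, a noncoding growth arrest gene with snoRNAs in its introns. The brightest of 4 Gas5 probe sets gave 676 and 554 (-0.28). The snoRNA differed more than this host probe set, and the other Gas5 probe sets were not compared.

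Snord118, known as U8, is needed for maturation of the large subunit ribosomal RNAs and has its own promoter, and no gene in RefSeq spanned it. It read 328 and 183 (-0.78), and its 2 probe sets held the same values, so they count as 1 measurement. Snord73b read 446 and 255 (-0.77), and the ribosomal protein gene that spans it, Rps3a1, 577 and 530 (-0.12). Snord33, a methylation guide for the small subunit RNA, read 752 and 468 (-0.67). Each of these was lower with the HMGN1 virus by at least 1.59-fold, and all are of box C/D.

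Just below them came Snora31, the lowest box H/ACA member, at 562 and 362 (-0.61). Its host is Tpt1, an abundant translationally controlled protein gene, which read 7864 and 7858. Snord53 read 576 and 373 (-0.60), while Wdr43, its host and itself a nucleolar factor of small subunit assembly, read 469 and 529 (0.17). Tpt1 was thus nearly the same on both arrays and Wdr43 higher with the HMGN1 virus, while both snoRNAs were lower. Under the 1.5-fold size, the next members were Snora33 at 214 and 147 (-0.50), in a gene, Rps12, at 1701 and 1775 (0.061), and Snora16a at 1354 and 966 (-0.48).

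At the other end, Snord42b in the ribosomal protein gene Rpl23a had 201 and 251 (0.30), the highest of the detected members. Its neighbour in the same gene, Snord42a, had 107 and 85.7 (-0.27), and the gene itself had 2114 and 2054 (-0.041). Snord95 in Rack1, a ribosomal scaffold protein gene, had 193 and 212 (0.12). Snord55 read 289 on both arrays, and Snord16a read 309 and 302 (-0.030), close to its host Rpl4 at 1195 and 1218 (0.027). The 4 highest detected members are all of box C/D. The values of Snord55 and of Snord96a (59.3, under the floor) were equal to the last digit on both arrays, as were those of 749 of 28944 probe sets.

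snoRNAs with roles in cutting the ribosomal precursor were lower too. Snora73a and Snora73b, the U17 RNAs required for small subunit RNA processing, read 1508 and 1218 (-0.30) and 1632 and 1255 (-0.37). Snord14e, a U14 copy in the heat shock gene Hspa8, read 295 and 250 (-0.23) and its host 6288 and 6180 (-0.025). Snord22, which lies in Snhg1 and acts in small subunit RNA maturation in Xenopus, read 75.6 and 86.6 (0.16) and lay under the floor. Rnu3a, a U3 gene that the symbol rule leaves out, read 332 and 254 (-0.37). Of these processing snoRNAs, only U22 was not lower.

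Detected members that share a host differed from each other by 0.036 to 0.57 over 7 hosts. Snora16a and Snora44 (1218 and 891, -0.44) both lie in Snhg12 and differed from each other by 0.036. The 2 members in Snhg3 differed from each other by 0.070, and those in the noncoding gene 2410006H16Rik, Snord49b (1004 and 752, -0.41) and Snord49a (155 and 121, -0.32), by 0.086. In Rps3, a ribosomal protein gene, Snord15a had 152 and 120 (-0.30) and Snord15b 318 and 276 (-0.19), and the gene itself 1014 and 1073 (0.080). Within Rpl13a, Snord35a (767 and 571, -0.42) lay above Snord33 by 0.25, and within Ncl, the gene of nucleolin, Snora75 (144 and 120, -0.23) lay above Snord82 (1941 and 1471, -0.40) by 0.17. Of the 7 pairs with both members detected, that in Rpl23a was widest apart, at 0.57. For scale, the SD between probe sets that share a gene was 0.0916 over 667 genes, which leaves out all variation between cultures or arrays. Probe sets of the same member lay close: Snora3 gave -0.41 and -0.39, and Snora21 gave -0.39 and -0.32.

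The other detected box H/ACA members were all lower, and most lay close to their class median. Snora3 in Rpl27a read 1320 and 990, Snora74a in Snhg4 748 and 573 (-0.37), and Snora23 in Ipo7 642 and 500 (-0.35). Snora69 in Rpl39 read 306 and 226 and Snora20 in Tcp1 129 and 92.7 (-0.41 each). Snora21 in Rpl23 read 153 and 112 and Snora30 in Srcap 128 and 101. Differences were smaller for Snora70 in Rpl10 (333 and 271, -0.28), Snora7a in Rpl32 (1620 and 1367, -0.24), Snora52 in Rplp2 (6317 and 5630, -0.17) and Snora2b in Kansl2 (119 and 113, -0.068). Large and small differences both occurred among members within ribosomal protein genes.

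The remaining detected box C/D members were lower as well. Snord35b read 419 and 321 (-0.37), Snord104 7625 and 6465 (-0.24), and Snord8 in Chd8 178 and 156 (-0.18). None of these 3 was 1.5-fold lower, and 1 was 1.25-fold lower. Under the floor, Snord73a read 31.5 and 38.6 (0.20) in the gene that also holds Snord73b, Snord52 58.3 and 48.7 (-0.20), Snord37 in the elongation factor gene Eef2 44.8 and 39.3, Snord38a 21.0 and 17.6 (-0.14 each), and Snord58b in Rpl17 7.80 and 6.84 (-0.059).

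Host genes lay near the median of all genes while most of their snoRNAs lay below it. A gene spanning the member was found in RefSeq for 50 of 51, 40 genes in all, and 24 of these had a probe set with a single symbol, 23 of them detected. The strand of the members is not in that table and was not used. Of the 23 hosts 9 were lower and 14 higher, between -0.14 and 0.17, with a median of 0.036 and 0 at 1.25-fold either way. For 23 detected members with a detected host, the snoRNA lay below its host in 22 pairs, by a median of -0.35. Snord42b and Rpl23a were the exception. Host and snoRNA differences had a Spearman's rho of -0.15 over the 23 pairs, some of which share a host. Which exons or introns the host probe sets cover is not given in the files.

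**Figure D3:**
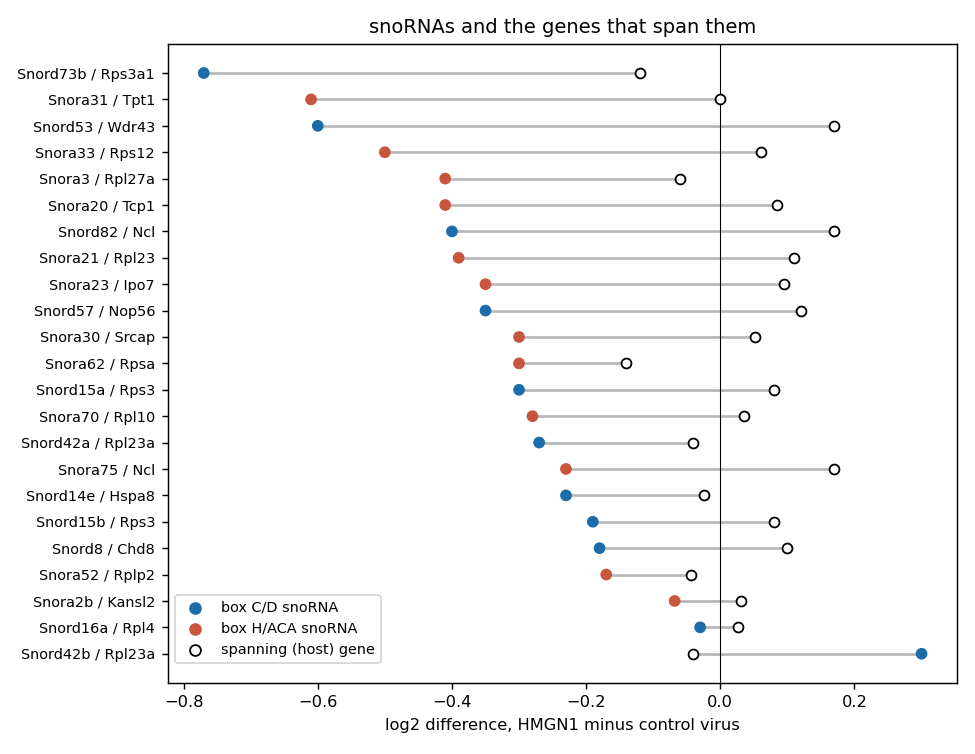
Log2 difference (HMGN1 minus control virus) of 23 detected snoRNAs (filled circles, blue for box C/D, red for box H/ACA) and of the gene that spans each (open circles). Open circles lie between -0.14 and 0.17, and in 22 pairs the filled circle is to the left.

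Nop56 and Ncl are hosts that also act on ribosomal RNA. Nop56 encodes a core protein of every box C/D particle and read 813 and 886 (0.12), while Snord57 within it read 1989 and 1554 (-0.35). Nucleolin binds ribosomal precursor RNA, and Ncl read 1033 and 1168 (0.17) with both of its snoRNAs lower. By kind of host, detected members had a median of -0.30 for 18 in ribosomal protein genes and -0.37 for 8 in noncoding genes.

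The protein partners of snoRNAs went both ways. Of the box C/D core proteins, the methyltransferase gene Fbl read 358 and 316 (-0.17) and Snu13 2129 and 1930 (-0.14), while Nop58 read 291 and 331 (0.18). Among the box H/ACA core proteins, the pseudouridine synthase gene Dkc1 read 167 and 183 (0.12), Nhp2 165 and 180 (0.12), Gar1 181 and 177 (-0.029) and Nop10 487 and 464 (-0.068). The medians of these lists of 4 were -0.0094 and 0.043, and 0 of the 8 genes reached 1.25-fold. The median of all detected genes was 0.027.

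Assembly factors, RNA processing enzymes and the polymerase I machinery had more higher than lower members, as did all detected genes, of which 6803 of 11325 were higher (median 0.027). Of 11 detected assembly factors 8 were higher (median 0.091), from Ruvbl1 (-0.064) and Znhit6 (-0.058) to Nufip1 (394 and 467, 0.24) and Shq1 (81.7 and 99.6, 0.24). Of 23 detected processing, capping and decay genes 16 were higher (median 0.078). At the top of that list were Zcchc8, a subunit of the nuclear exosome targeting complex (470 and 542, 0.20), and the cytoplasmic exonuclease gene Xrn1 (388 and 446, 0.19), and at its bottom Exosc4 (-0.11) and Exosc9 (-0.10), subunits of the exosome core. Of 16 polymerase I and rRNA transcription genes 13 were higher (median 0.047), with Ncl and Polr1d (0.13) highest and Taf1c (-0.10) and Polr1a (-0.011) lowest. None of these 50 detected genes differed by 1.25-fold. Among 59 detected genes with a ribosomal protein symbol 39 were lower, with a median of -0.032. They ran from Rpl14 (-0.20) and Rpl24 (-0.14) at the low end to Rps4l (79.6 and 93.8, 0.20) and Rpl23 (0.11) at the high end. Taken by symbol, the list also holds Rps19bp1 (-0.075) and paralogs such as Rps4l and Rpl7l1 (0.034). A list of noncoding snoRNA host genes, taken by symbol (Gas5 and Snhg genes), had 6 detected. Of these only Gas5 spans a member, so the list does not describe the noncoding hosts of the members. Gas5 and Snhg15 (606 and 510, -0.24) were lowest in it and Snhg16 (0.022) and Snhg11 (0.074) highest.

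**Figure D4:**
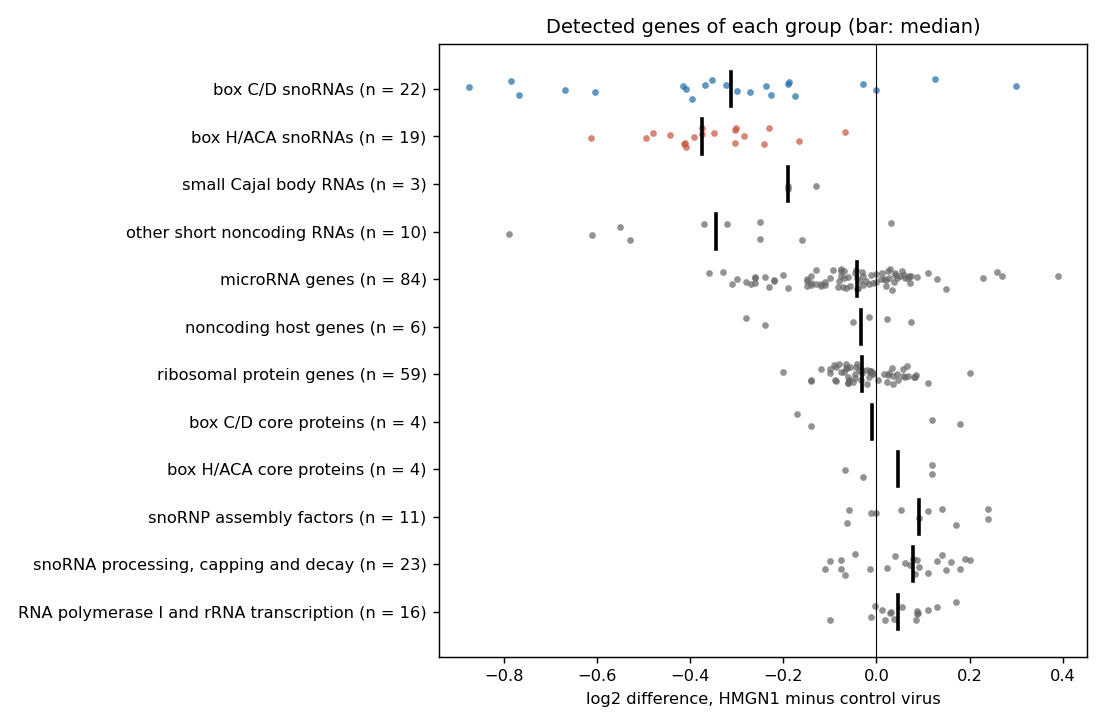
Log2 difference (HMGN1 minus control virus) of the detected genes in each group, 1 point per gene with vertical jitter, and the median as a bar. snoRNAs and other short noncoding RNAs lie mostly below 0, whereas microRNA genes, ribosomal protein genes and the snoRNA protein partners spread around it.

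Other short RNAs were mostly lower too. Of 10 detected RNAs in a list of Y, vault, small nuclear and similar RNAs, Rnu3a included, 9 were lower, with a median of -0.34. The lowest were the Y RNA Rny1 (1001 and 573, -0.79) and the 5S copy n-R5s136 (3106 and 2027, -0.61), and the highest were Rny3 (-0.16) and Rn7sk (14659 and 14990, 0.032). The 3 detected small Cajal body RNAs, which guide modification of spliceosomal RNAs, were all lower, from Scarna8 (110 and 94.3, -0.19) to Scarna13 (1196 and 1093, -0.13). For microRNA genes the median was -0.043 (53 lower among 84 detected), from Mir92b (-0.36) and Mir598 (-0.33) to Mir350 (0.27) and Mir219a-2 (0.39). Taken by symbol, this list also holds the microRNA host genes Mir670hg (-0.22), Mir100hg (-0.016) and Mir99ahg (0.034). Among protein-coding genes the difference went with genomic span, introns included: the median was -0.035 for 351 genes with an annotated span of 300 to 2000 bases and 0.056 for 1650 genes of at least 100000 bases. Other gene classes, members left out, had medians of -0.070 for 93 genes under 300 bases and -0.075 for 11 of at least 100000 bases. In the bins of span between these, their medians were -0.021, -0.034, -0.022 and -0.0045, from short to long. These genes were not split by kind of RNA. In the lists above, taken by symbol and not by span, detected microRNA genes (84, median -0.043) outnumber the 10 detected Y, vault, small nuclear and similar RNAs (median -0.34). With the protein-coding trend removed, the medians were -0.21 for box C/D and -0.27 for box H/ACA. That removal added 0.10 to every detected member, because 1 protein-coding gene under 300 bases was detected and the fit is an extrapolation there. The part of RNA length in the result was not tested.

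Annotated lengths of the snoRNAs ran from 45 to 148 bases in box C/D and from 61 to 205 in box H/ACA, and over the 41 detected members Spearman's rho was -0.01 with length and -0.26 with mean intensity. These points share both arrays. Members just above the floor were Snord87 (93.1 and 79.8, -0.19), Snora62 (104 and 81.6, -0.30) and Snord42a, and those just below were Snord22, Snord85 (79.4 and 74.6, -0.074) and Snord96a. Of the 10 members under the floor 6 were lower, with a median of -0.067, between Snord61 (57.3 and 41.2, -0.36) and Snora41 (36.4 and 48.1, 0.29).

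Array intensities ran from 3.08 to 18209 with the control virus and from 3.56 to 18892 with the HMGN1 virus, with medians of 101 and 98.8. All 7 listed markers of neural precursors were detected, with summed intensities of 23830 and 23779. The 4 listed astrocyte markers summed to 3071 and 3353 and the 4 neuron markers to 6237 and 6286. The 4 oligodendrocyte lineage markers summed to 3096 and 3063. In these lists genes went both ways, and bright genes weigh most in a sum. Gfap (406 and 615), Aqp4 (0.32) and Slc1a3 (0.15) were higher and Aldoc (1574 and 1496, -0.072) lower. Dcx (0.087) was higher, and Tubb3 (-0.17), Rbfox3 (-0.15) and Map2 (-0.0062) lower. Olig2 (-0.16) was lower, and Pdgfra (0.094), Sox10 (0.055) and Mbp (0.28) higher. Of other cell types, 1 of 4 microglial, 0 of 3 endothelial and 3 of 3 mesenchymal markers were detected, the last summing to 427 and 397, and blood markers were not analysed here. Their part in the snoRNA values was not tested. In such bulk RNA, fewer cells of a type and less RNA per cell cannot be told apart.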

How the data were processed

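Each deposited array column gives a linear intensity for 28944 probe sets. Background correction, normalization and probe summary by the authors are not given in the sources used. RNA was taken with TRIzol and a column kit and labelled with the GeneChip WT kit, per the labels' protocols. GEO's platform annotation gave 1 symbol for 21789 probe sets, several for 1621 and none for 5534. No gene was named from a probe set with several symbols. Each gene took its brightest probe set, on log2(intensity + 16), without further normalization. The detection floor came from 1035 olfactory receptor probe sets. With 1 array per virus no test was run, and the number of arrays limits the precision. Genes were counted at 1.5-fold and 1.25-fold.

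All 51 members matched the RefSeq gene table (GRCm38.p6) by gene number. It gave length and the spanning gene: the shortest protein-coding gene that contains the member, otherwise the shortest of any class. The design asked for the same strand, which that table does not give. Gas5 was named as the known host of Snord47, outside this rule. Some host genes are not reported here. Members, lists and sizes were chosen with earlier results of these data known. Genes named were Hmgn1, the 8 lowest and 4 highest detected members, members sharing a host, those with processing roles, those next to the floor, their hosts, all core proteins and the 2 highest and 2 lowest of each other list; any other was chosen after its values were seen. Hosts printed as sequence were chosen likewise. Alternatives were other offsets (1 and 64), quantile normalization, centring, removal of the trend with intensity or gene span (loess span 0.3), other floors, every probe set, and 1 value per host or per pair of values. The code was tested on simulated data. Python 3.11.15, pandas 2.3.3 and statsmodels 0.14.6 were used.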

Additional observations from a re-analysis of the deposited data

How the results depend on the processing

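Both classes kept a negative median under every alternative run, from -0.35 to -0.21 for box C/D and from -0.40 to -0.27 for box H/ACA. Removing the span trend added 0.10 to every detected member, an extrapolated constant at these lengths: with it, the medians were -0.21 and -0.27, 3 box C/D and 0 box H/ACA members were at least 1.5-fold lower in place of 5 and 1, and Snora2b (0.032) and Snord16a (0.070) changed sign. With an offset of 64, 0 box H/ACA members reached 1.5-fold. Chosen after seeing the data, a size of 1.25-fold gave 11 and 11, and adding 34 detected probe sets of several symbols that include a snoRNA raised the box C/D members that were lower from 19 to 47, by construction; 33 of these 34 were lower (median -0.35), but they hold only 16 distinct pairs of values. The host median of 0.036 became -0.0087 over 72 probe sets when every probe set was counted, and the cause was not tested. The other 81 values of counts and medians stayed within 1.5 times (counts) or the SD of 0.0916 between probe sets of a gene (medians). No replicate could be left out. No paired analysis was possible because there is a single array for either virus. Dim members near the floor of 85.9 are compressed by the offset.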
